A study of Homo sapiens with 6 samples.

Results

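The genes described here are the chemokines, interleukins and related secreted inflammatory proteins of a day 8 reprogramming experiment. They were chosen by name: rows of the deposited table whose symbol is CXCL or CCL with a number, IL with a number and at most a final A or B, or LIF, CSF1, CSF2, CSF3, PTX3 or TNF. The rule found 79 genes of 27788 in the table. The cells were BJ fibroblasts, an established human foreskin line, all of which had been infected with lentivirus carrying an OCT4 and SOX2 construct and a KLF4 and MYC construct, and all of which were collected on day 8. They were kept in 10% serum for the first 5 days, passaged at day 4 onto Matrigel, and held from day 6 in medium for human embryonic stem cells with 20% serum replacement. A cell sorter then parted them by 2 surface proteins, the aminopeptidase CD13 and the protein C receptor CD201, into double-negative cells, cells with CD201 but not CD13 (CD201-only), and double-positive cells. Each group has 2 poly-A libraries, 6 in all. Nothing in the labels says whether the 2 libraries of a group came from separate infections, so p-values measure only the spread between these libraries. Uninfected BJ cells were not analysed here, and every group carries the constructs, so no level below is a level before reprogramming.

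Chemokines are small secreted proteins that draw white blood cells along a gradient. CXC chemokines with a Glu-Leu-Arg motif, such as CXCL1 and CXCL8, act on neutrophils through CXCR1 and CXCR2, and the CC chemokine CCL2 acts on monocytes through CCR2. Interleukins are a mixed set of secreted signals. In fibroblasts, interleukin-1 and tumour necrosis factor act through the transcription factor NF-kB, with AP-1 and C/EBP proteins, to switch on CXCL1, CXCL8, IL6 and CSF2 together. Wounded, infected and senescent fibroblasts secrete this set, and it is part of the secretory phenotype of senescence.

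The promoters of these genes were read for matches to 4 short motifs, to show which members hold such letters. Each RefSeq window (build GRCh38.p14) runs from 250 bases before to 50 after a transcript start, 300 bases in all. Of the 22 genes that could be tested, 16 had an entry, with 18 windows. NF-kB was searched as GGNNTTTCC, AP-1 as TGANTCA, C/EBP as TTGCNNAA and the interferon response element as GAAA, any 2 bases and GAAA, each on both strands, and none of these patterns is contained in another. The NF-kB letters were found in 8 of the 18 windows, in CXCL1, CXCL2, CXCL3, CXCL5, CXCL6, CXCL8, IL6 and IL32, and in 6.26% of all 35116 windows of the table. AP-1 letters were in 4 member windows (CXCL8, IL11, IL19 and IL23A) and 7.71% of all windows. The C/EBP letters were in 4 member windows (CXCL2, IL1B, IL6 and PTX3) and 10.5% of all, and the interferon letters in 0 member windows and 3.57% of all. CXCL1, CXCL2 and CXCL3 are close copies of each other, as are CXCL5 and CXCL6, so their NF-kB matches are not separate finds. A match describes these letters only.

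The matches of the 6 CXC chemokines of a cluster on chromosome 4, and of IL6, are given below with 8 bases on each side, because they are nearly the same word while the genes differ in their levels. Capitals mark the NF-kB letters, and each is written 5′ to 3′ on the gene's own strand.
CXCL8: caaatcgtGGAATTTCCtctgacat
CXCL6: gagttcagGGAATTTCCccagcatc
CXCL1: gaactccgGGAATTTCCctggcccg
CXCL5: gagttcagGGAATTTCCccagcatc
CXCL3: gagctccgGGAATTTCCctggcccg
CXCL2: gagctccgGGAATTTCCctggcccg
IL6: caaatgtgGGATTTTCCcatgagtc
CXCL5 and CXCL6 share all 25 letters, and so do CXCL2 and CXCL3. The matches start 91 bases before the transcript start in CXCL8, 89 in CXCL6, 78 in CXCL1, 90 in CXCL5, 78 in CXCL3, 77 in CXCL2 and 72 in IL6. CXCL1, CXCL2 and CXCL3 each have a further match, GGGCTTTCC, that starts 53 bases before.

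Whole windows are given for the 4 tested genes with the highest double-positive level among those with an entry and a match, with every match in capitals. IL1B (chr2:112836730-112837029, minus strand) has a C/EBP match, CXCL1 (chr4:73869143-73869442, plus strand) has 2 NF-kB matches, PTX3 (chr3:157436600-157436899, plus strand) has a C/EBP match read on the other strand, and CXCL8 (chr4:73740319-73740618, plus strand) has an AP-1 match followed by an NF-kB match. CCL2, the member with the highest mean over the 6 libraries, had no entry and is named only.
IL1B: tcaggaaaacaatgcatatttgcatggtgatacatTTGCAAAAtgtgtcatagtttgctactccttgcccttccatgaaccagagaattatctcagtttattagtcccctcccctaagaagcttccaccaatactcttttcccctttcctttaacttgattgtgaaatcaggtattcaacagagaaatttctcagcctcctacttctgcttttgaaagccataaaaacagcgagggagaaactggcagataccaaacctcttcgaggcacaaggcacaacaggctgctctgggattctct
CXCL1: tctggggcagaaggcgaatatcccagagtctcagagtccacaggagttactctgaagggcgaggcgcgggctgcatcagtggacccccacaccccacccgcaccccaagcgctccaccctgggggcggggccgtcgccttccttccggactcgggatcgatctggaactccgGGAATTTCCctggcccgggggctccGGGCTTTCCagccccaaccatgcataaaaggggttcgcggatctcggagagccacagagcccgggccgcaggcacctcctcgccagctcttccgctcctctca
PTX3: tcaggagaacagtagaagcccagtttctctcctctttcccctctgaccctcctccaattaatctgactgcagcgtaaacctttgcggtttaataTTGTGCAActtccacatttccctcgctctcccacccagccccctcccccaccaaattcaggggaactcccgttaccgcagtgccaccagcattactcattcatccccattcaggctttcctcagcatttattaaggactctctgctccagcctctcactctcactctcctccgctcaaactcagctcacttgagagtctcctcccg
CXCL8: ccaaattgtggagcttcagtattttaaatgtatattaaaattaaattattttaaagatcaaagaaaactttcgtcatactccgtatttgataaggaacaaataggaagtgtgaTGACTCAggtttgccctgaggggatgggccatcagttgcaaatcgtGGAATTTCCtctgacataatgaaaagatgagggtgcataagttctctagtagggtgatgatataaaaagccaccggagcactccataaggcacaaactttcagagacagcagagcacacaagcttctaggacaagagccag

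Most of these genes were at 0 or below the level set for testing. Of the 79, 31 were listed at 0 in every library: 13 of 24 CC chemokines, 4 of 14 CXC chemokines and 14 of 35 interleukins. Another 26 were above 0 but had a mean under 1 FPKM (fragments per kilobase of transcript, scaled to the depth of the library) over the 6 libraries. The remaining 22 had a mean of at least 1 FPKM and were tested: 8 CXC chemokines, 1 CC chemokine, 9 interleukins, LIF, CSF1, CSF2 and PTX3. The gene just inside that limit was CXCL16 at 1.06 FPKM, and the gene just outside was CSF3 at 0.9998 FPKM. Counts below are over the 22 and do not speak for the other 57. The limit is a mean that includes the double-positive libraries. CSF2, IL6, IL11 and CXCL16 had means of 0.344, 0.328, 0.896 and 0.532 FPKM in CD201-only cells. In double-negative cells these were 1.39, 1.33, 1.06 and 1.23, and in double-positive cells 3.85, 7.24, 4.15 and 1.41. These genes passed with the help of the double-positive values, which favours calls as lower in the other groups.

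The sequencing depth behind a value could only be approximated. In 206 genes with 1 transcript of at least 1500 nt that were at 0 in at least 4 libraries, a value above 0 was taken as 1 fragment of a 200 nt insert. That gave a median of 14.8 M fragments per library (M is mega), with an interquartile range of 9.37 to 20.05 M. FPKM sums per library were 489152 to 521352. The lowest correlation between libraries of 1 group was 0.992 and the highest between groups 0.981. ANPEP, the gene of CD13, was at 35.96, 28.89 and 155.3 FPKM in the double-negative, CD201-only and double-positive groups, and PROCR, the gene of CD201, was at 17.31, 47.45 and 51.93 FPKM. In bulk RNA, fewer cells that make a transcript and less transcript per cell cannot be told apart, which holds for every value below.

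For 10 of the 22 tested genes (3.62% of all tested genes) the libraries were highest in double-positive, intermediate in double-negative and lowest in CD201-only cells. In these genes both neighbouring comparisons had an adjusted p under 0.05 from limma. CXCL3, CXCL16, IL11 and LIF had the same order of means without reaching that threshold in both comparisons. IL18, IL34, IL12B and IL23A were lowest in double-positive cells instead, and CXCL5 was highest in double-negative cells. Log2 changes are differences of log2(FPKM + 1) from limma with their standard error (SE), and a gene is called at an adjusted p under 0.05. Against double-positive cells, 15 of 22 genes were called lower in double-negative cells and 5 higher, where 24.5% of all 12210 tested genes were called lower and 42.1% higher. In CD201-only cells 17 were called lower and 3 higher, against 22.9% and 35.8% of all genes. Between double-negative and CD201-only cells 15 were called higher and 2 lower, against 21.5% and 16.5%.

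A log2 change of -1 or less was called for 11 of 22 genes in double-negative against double-positive cells (4.67% of all genes) and for 12 in CD201-only cells (4.12%). Both counts include CSF2, IL6 and IL11, which passed the mean limit with the help of their double-positive values. Rises of at least 1 numbered 2 in double-negative cells (2.01% of all genes) and 1 in CD201-only cells (0.68%). In double-negative against CD201-only cells 4 genes rose by at least 1 (1.03%) and 1 fell by at least 1 (1.18%). The median log2 change of the 22 was -0.99, -1.26 and 0.63 in these 3 comparisons, and that of all genes 0.11, 0.08 and 0.04. The comparisons share libraries, so they are not independent of each other.

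Median-ratio rescaling of the libraries moved the median of all genes in the first comparison from 0.109 to 0.00349, and the share of higher calls among all calls from 63.2% to 48.3%. In the second that share went from 61.0% to 48.1%, and in the third from 56.6% to 47.1%. In the third comparison 17.7% of all genes were then called higher and 19.9% lower, so that their order turned, and of the members 14 were called higher and 2 lower. The members' medians under that rescaling were -1.09, -1.33 and 0.60, and all 22 genes kept their direction in every comparison.

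Double-negative libraries lay above both CD201-only and below both double-positive libraries, with both neighbouring comparisons called, for CCL2, CSF2, CXCL1, CXCL2, CXCL6, CXCL8, CXCL12, IL1B, IL6 and PTX3. These are 10 of 22 genes, and 3.62% of all tested genes had that order. IL6 and CSF2 among them passed the mean limit with the help of their double-positive values. The members were chosen with this order already known from earlier results of these data, so the count is a description and not a test. The reverse order, lowest in double-positive and highest in CD201-only cells, was found for 0 members and 3.12% of all genes. CXCL1 left the list under median-ratio rescaling, in limma without the trend, and when 1 library of the double-negative or CD201-only group was dropped, so that 9 genes remained.

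**Figure D1:**
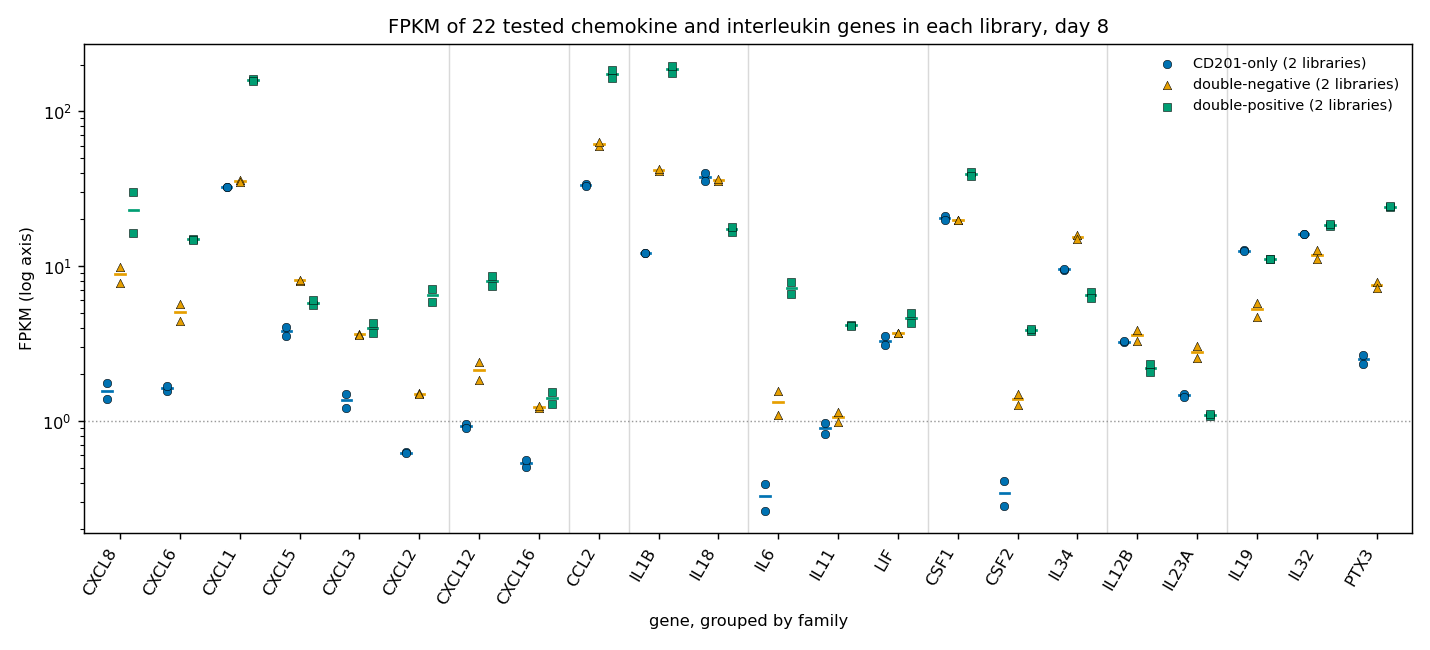
FPKM on a log axis for the 22 tested genes, 2 points per group and a bar at the group mean, ordered by family, with a dotted line at 1 FPKM. For most genes on the left the CD201-only points are lowest and the double-positive points highest, as for IL6 at 0.263 to 0.393 and 6.62 to 7.86 FPKM, while IL18, IL34, IL12B and IL23A are lowest in double-positive cells.

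Among the neutrophil-attracting CXC chemokines, CXCL1, CXCL2, CXCL6 and CXCL8 were called lower in double-negative than in double-positive cells, and CXCL3 and CXCL5 were not. CXCL1, also called GRO-alpha, was the most abundant of them, at 161.9 and 157.1 FPKM in the double-positive libraries. It was at 35.8 and 34.9 in double-negative and at 32.4 and 32.7 in CD201-only libraries. Its log2 change from double-positive cells was -2.14 (SE 0.0304, adjusted p = 2.82e-08) for double-negative cells and -2.26 (adjusted p = 1.63e-08) for CD201-only cells. The double-negative excess over CD201-only cells was small (log2 change 0.12, adjusted p = 0.0231). It was 0.08 (adjusted p = 0.105) after median-ratio rescaling, 0.12 (adjusted p = 0.0756) without the trend, and 0.10 to 0.13 (adjusted p = 0.0590 to 0.129) when any 1 of the 4 libraries compared was left out.

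CXCL8, interleukin-8, showed the largest gap between CD201-only and double-negative cells. It was at 1.76 and 1.38 FPKM in CD201-only, 9.87 and 7.81 in double-negative, and 16.4 and 29.96 in double-positive libraries. No groups overlapped, and the double-positive libraries lay far apart. Double-negative cells had 5.63 times the mean of CD201-only cells (log2 change 1.93, SE 0.249, adjusted p = 0.00105) and 0.381 times that of double-positive cells (-1.25, adjusted p = 0.00362).

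CXCL6, another neutrophil attractant, took the same steps. Its libraries held 1.55 and 1.69 FPKM in CD201-only, 4.45 and 5.72 in double-negative, and 14.9 and 14.8 in double-positive cells. It rose by 1.21 (adjusted p = 0.000135) from CD201-only to double-negative cells. CXCL2, or GRO-beta, was at 0.626 and 0.623 FPKM, 1.51 and 1.49, and 7.09 and 5.90 in the same order. CXCL2 rose by 0.62 (adjusted p = 0.00247) from CD201-only to double-negative cells and was -1.58 (adjusted p = 1.00e-05) from double-positive cells in the latter. The CD201-only values of CXCL2 correspond to about 9.4 fragments per library.

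CXCL5 and CXCL3, which are neighbours, were not called lower in double-negative than in double-positive cells. CXCL5, a neutrophil attractant also known from epithelium, was at 3.53 and 4.04 FPKM in CD201-only, 8.04 and 8.19 in double-negative, and 5.60 and 6.01 in double-positive libraries. Its double-negative level was above that of both other groups, by 0.42 (SE 0.0740, adjusted p = 0.00192) over double-positive and 0.93 (adjusted p = 0.000106) over CD201-only cells. CXCL3, or GRO-gamma, was at 1.49 and 1.22, 3.65 and 3.61, and 3.68 and 4.32 FPKM. It rose by 0.98 (adjusted p = 0.000295) from CD201-only to double-negative cells, and its difference between double-negative and double-positive cells was -0.11 (SE 0.0963, adjusted p = 0.354).

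**Figure D2:**
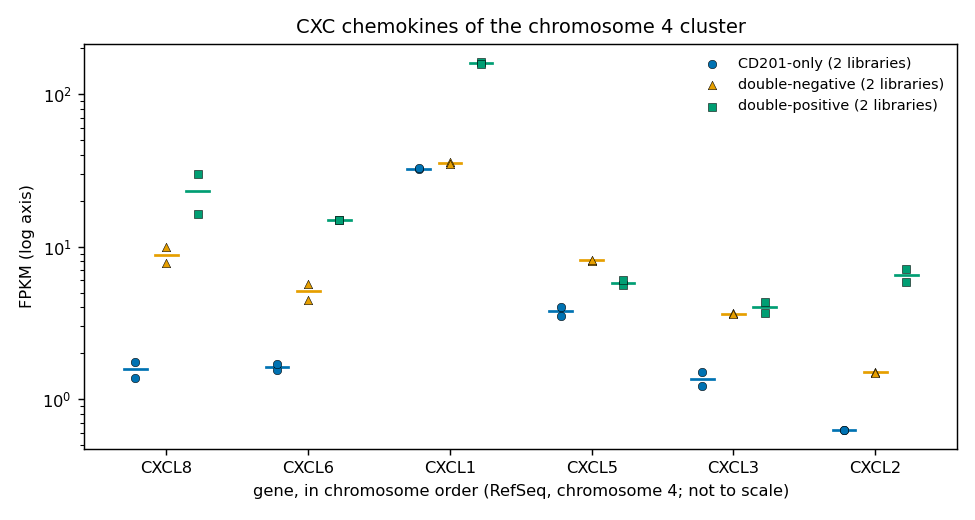
FPKM on a log axis for the 6 CXC chemokines of the chromosome 4 cluster in RefSeq order, 2 points per group with a bar at the mean. CXCL8, CXCL6, CXCL1 and CXCL2 step up from CD201-only to double-negative to double-positive cells, the first step being small for CXCL1, while CXCL5 peaks in double-negative cells at 8.04 and 8.19 FPKM.

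RefSeq places 9 protein-coding genes in this stretch, in the order CXCL8, CXCL6, PF4V1, CXCL1, PF4, PPBP, CXCL5, CXCL3 and CXCL2. CXCL5 and CXCL3 thus lie between CXCL1 and CXCL2, which were both called lower in double-negative than in double-positive cells. Their NF-kB words, above, equal those of CXCL6 and CXCL2 letter for letter. CXCL1, CXCL2 and CXCL3 are close copies of each other, as are CXCL5 and CXCL6, and reads can be shared between copies, so the split within each pair or trio is less certain than its sum. How multiply aligned reads were treated is not given in the sources used here.

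Of the remaining chemokines, CCL2 had the highest level in each group. CCL2, the monocyte attractant MCP-1, was at 34.1 and 32.8 FPKM in CD201-only, 59.6 and 63.5 in double-negative, and 164.7 and 185.8 in double-positive libraries. Against double-positive cells its log2 change was -1.49 (SE 0.0597, adjusted p = 1.45e-06) for double-negative cells and -2.35 (adjusted p = 3.14e-07) for CD201-only cells. It rose by 0.86 (adjusted p = 5.71e-05) from CD201-only to double-negative cells. CXCL12, a stromal chemokine that acts on CXCR4 and is not a neutrophil attractant of the GRO type, was at 0.960 and 0.8998, 2.42 and 1.83, and 7.44 and 8.66 FPKM in the same order. It took the order of CCL2, with a called rise of 0.69 (adjusted p = 0.00323) from CD201-only to double-negative cells and a log2 change of -1.54 (adjusted p = 2.56e-05) for double-negative against double-positive cells. CXCL16, a membrane-bound chemokine that can be shed, was at 0.501 and 0.563, 1.21 and 1.24, and 1.29 and 1.53 FPKM. Its double-negative level was 0.54 above CD201-only cells (adjusted p = 0.00448) and not called apart from double-positive cells (-0.11, SE 0.0958, adjusted p = 0.327). CXCL16 shares exon sequence with MED11 on the opposite strand in GENCODE 29, and it is not stated whether strand was used in counting.

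The 2 expressed members of the interleukin-1 family went in opposite directions. IL1B, the inducible cytokine interleukin-1 beta, was at 12.1 and 12.2 FPKM in CD201-only, 41.4 and 42.1 in double-negative, and 176.9 and 195.4 in double-positive libraries. This was the widest range among the members with at least 10 FPKM in every library: double-positive cells had 15.3 times and double-negative cells 3.44 times the CD201-only mean. The log2 change was 1.70 (SE 0.0480, adjusted p = 1.17e-06) between double-negative and CD201-only cells. IL18, which is made in many tissues without induction, was at 39.7 and 35.3 FPKM, 35.3 and 36.4, and 16.5 and 17.98 in the same order. Relative to double-positive cells it rose by 1.01 (SE 0.0630, adjusted p = 1.09e-05) for double-negative and by 1.08 (adjusted p = 9.99e-06) for CD201-only cells, which overlapped and were not called apart (-0.06, adjusted p = 0.477). IL1A and IL37 had means under 1 FPKM.

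Both proteins are cut into their active form by caspase-1. CASP1 itself was at means of 0.108, 0.0417 and 1.00 FPKM in the double-negative, CD201-only and double-positive groups and was not tested. The receptor IL1R1 was at 1.12, 0.781 and 6.44 FPKM in the same order (-1.81 and -2.06 against double-positive cells, adjusted p = 3.48e-06 and 2.47e-06), so ligand and receptor were both highest in double-positive cells. IL18R1, the receptor chain for interleukin-18, was at 0, 0 and 0.0166 FPKM.

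Of the cytokines that signal through gp130, IL6 and IL11 were far below their double-positive level in the other groups and LIF was close to it. IL6, the main fever and acute-phase cytokine, was at 0.393 and 0.263 FPKM in CD201-only, 1.55 and 1.10 in double-negative, and 6.62 and 7.86 in double-positive libraries. Against double-positive cells its log2 change was -2.63 (SE 0.128, adjusted p = 4.24e-06) for CD201-only cells and -1.83 (adjusted p = 1.94e-05) for double-negative cells. Its CD201-only values correspond to about 7.7 and 5.2 fragments, so the 22.05-fold ratio of the double-positive to the CD201-only mean is imprecise, and with a pseudocount of 0.1 the log2 change of CD201-only cells became -4.11. STEAP1B overlaps IL6 on the opposite strand. IL11, a cytokine of bone marrow and fibrosis, was at 0.970 and 0.823, 1.15 and 0.978, and 4.196 and 4.096 FPKM. From the double-positive level it changed by -1.44 for CD201-only and -1.32 for double-negative cells, and its double-negative and CD201-only libraries lay side by side without a called difference (0.12, adjusted p = 0.329).

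LIF, which keeps mouse embryonic stem cells undifferentiated, was at 3.52 and 3.09 FPKM in CD201-only, 3.70 and 3.72 in double-negative, and 4.31 and 4.97 in double-positive libraries. Double-negative cells differed from double-positive cells by -0.26 (SE 0.0869, adjusted p = 0.0334), and CD201-only cells by -0.39 (adjusted p = 0.00706). The first call was lost without either double-negative library (adjusted p = 0.115 and 0.110), without double-positive replicate 2 (-0.17, adjusted p = 0.165) and with no filter on low values (adjusted p = 0.0744). LIF-AS1 overlaps LIF on the opposite strand. Among the receptors of this group, IL11RA was at 2.81 FPKM in the double-negative, 2.02 in the CD201-only and 7.91 in the double-positive group, and the shared chain IL6ST, or gp130, at 2.96, 3.61 and 4.32. IL6R was highest in CD201-only cells, at 6.29 FPKM against 2.92 and 2.90.

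The colony-stimulating factors drive growth of myeloid cells. CSF2, or GM-CSF, was at 0.407 and 0.281 FPKM in CD201-only, 1.502 and 1.275 in double-negative, and 3.80 and 3.90 in double-positive libraries. Against double-positive cells its log2 change was -1.85 (adjusted p = 5.49e-06) for CD201-only cells and -1.02 (SE 0.0955, adjusted p = 8.21e-05) for double-negative cells. The CD201-only values correspond to about 3.5 and 2.5 fragments, and a pseudocount of 0.1 gave -3.17 for that group. CSF3, or G-CSF, under the mean limit, was at 0.0946 and 0.0864, 0.296 and 0.257, and 2.84 and 2.42 FPKM, the same order as CSF2. In a fit without the filter CSF3 was called lower in CD201-only (-1.73, adjusted p = 0.000104) and double-negative (-1.51, adjusted p = 0.000121) than in double-positive cells, and was not called between them (0.23, adjusted p = 0.0876).

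CSF1 and IL34 are the 2 ligands of the macrophage receptor CSF1R, and they changed in opposite directions. CSF1, or M-CSF, was at 21.2 and 19.8 FPKM in CD201-only, 19.7 and 19.8 in double-negative, and 40.4 and 38.4 in double-positive libraries. Against double-positive cells its log2 change was -0.91 (adjusted p = 4.81e-06) for CD201-only cells and -0.96 (SE 0.0456, adjusted p = 3.08e-06) for double-negative cells, and these groups overlapped. IL34 was at 9.48 and 9.59 FPKM in CD201-only, 15.8 and 15.0 in double-negative, and 6.82 and 6.20 in double-positive libraries. It was above its double-positive level by 1.13 (SE 0.0589, adjusted p = 4.73e-06) for double-negative and by 0.49 (adjusted p = 0.000361) for CD201-only cells, and rose by 0.64 (adjusted p = 0.000215) from CD201-only to double-negative cells. CSF1R itself was at 0.0924, 0.320 and 0.181 FPKM in the double-negative, CD201-only and double-positive groups.

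**Figure D3:**
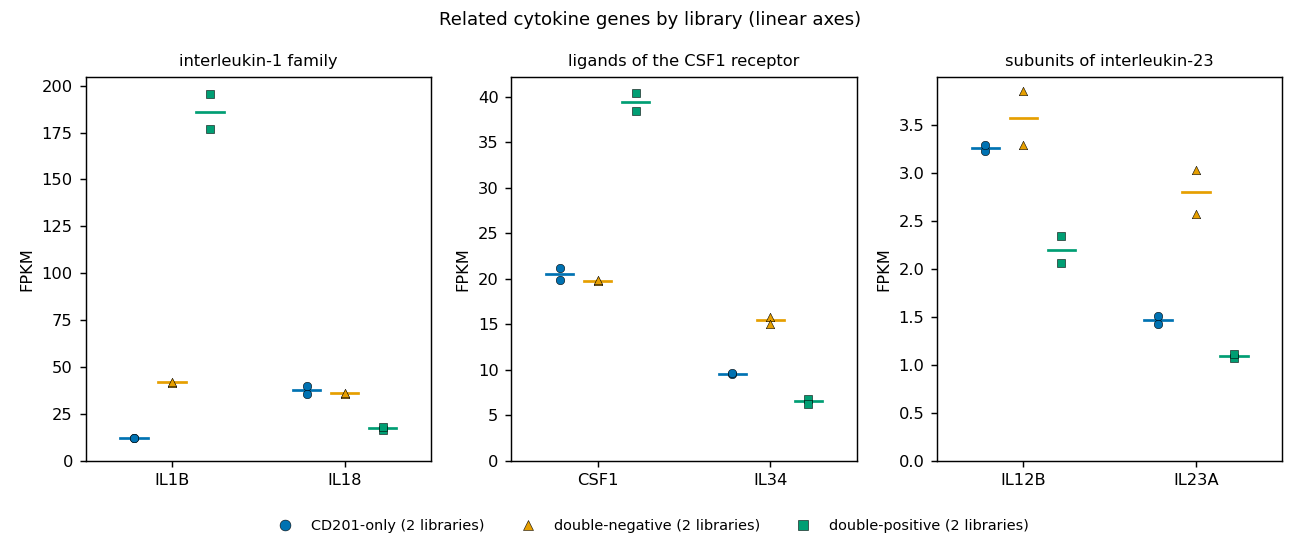
FPKM on linear axes for 3 pairs of related cytokine genes, 2 points per group with a bar at the mean. IL1B and CSF1 are highest in double-positive cells while their partners IL18 and IL34 are lowest there, and IL12B and IL23A are both lowest in double-positive cells.

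IL12B and IL23A, which encode the p40 and p19 chains of interleukin-23, were both lowest in double-positive cells. IL12B was at 3.23 and 3.28 FPKM in CD201-only, 3.29 and 3.85 in double-negative, and 2.06 and 2.34 in double-positive libraries. IL23A was at 1.504 and 1.423, 2.57 and 3.03, and 1.07 and 1.11 FPKM. Against double-positive cells, double-negative cells were higher by 0.51 (SE 0.0897, adjusted p = 0.00187) in IL12B and by 0.86 (adjusted p = 0.000167) in IL23A. CD201-only cells were higher by 0.41 (adjusted p = 0.00624) in IL12B, and by 0.24 (adjusted p = 0.0609) in IL23A, which was called with a pseudocount of 0.1, quantile normalization or no trend. IL12A, the chain that pairs with p40 in interleukin-12, had a mean of 0.505 FPKM.

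IL19 and IL32 were the members with a called fall from CD201-only to double-negative cells. IL19, of the interleukin-10 family and known from keratinocytes and monocytes, was at 12.6 and 12.6 FPKM in CD201-only, 5.82 and 4.73 in double-negative, and 11.0 and 11.2 in double-positive libraries. It was lower in double-negative cells by 1.12 (SE 0.0827, adjusted p = 7.56e-05) against CD201-only and by 0.95 (adjusted p = 5.58e-05) against double-positive cells. The CD201-only excess over double-positive cells was 0.17 (adjusted p = 0.124), with adjusted p = 0.0317 when only the libraries compared were fitted, and adjusted p = 0.0379 or 0.0363 without double-negative replicate 1 or 2. IL20 and IL24, of the same family, had means of 0.142 and 0.150 FPKM.

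IL32, a cytokine found in primates and absent from rodents, was at 16.1 and 16.2 FPKM in CD201-only, 11.1 and 12.6 in double-negative, and 18.2 and 18.6 in double-positive libraries. The log2 change of double-negative cells was -0.60 (SE 0.0621, adjusted p = 0.000141) from double-positive and -0.42 (adjusted p = 0.00201) from CD201-only cells. The change in CD201-only against double-positive cells was -0.18 (adjusted p = 0.0416). That call was lost when any 1 of those 4 libraries was left out (adjusted p = 0.0911 to 0.132), without the trend (adjusted p = 0.0636) and with no filter on low values (adjusted p = 0.0851).

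PTX3 is a secreted pattern recognition protein that fibroblasts make in response to interleukin-1. A link to IL1B was not tested here, and PTX3 stepped up from CD201-only to double-negative to double-positive cells. It was at 2.68 and 2.33 FPKM in CD201-only, 7.88 and 7.27 in double-negative, and 24.0 and 24.3 in double-positive libraries. PTX3 differed from its double-positive level by -2.85 (SE 0.0688, adjusted p = 2.63e-07) for CD201-only cells and -1.55 (adjusted p = 2.23e-06) for double-negative cells. It rose by 1.29 (adjusted p = 1.74e-05) from CD201-only to double-negative cells. VEPH1 overlaps PTX3 on the opposite strand.

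**Figure D4:**
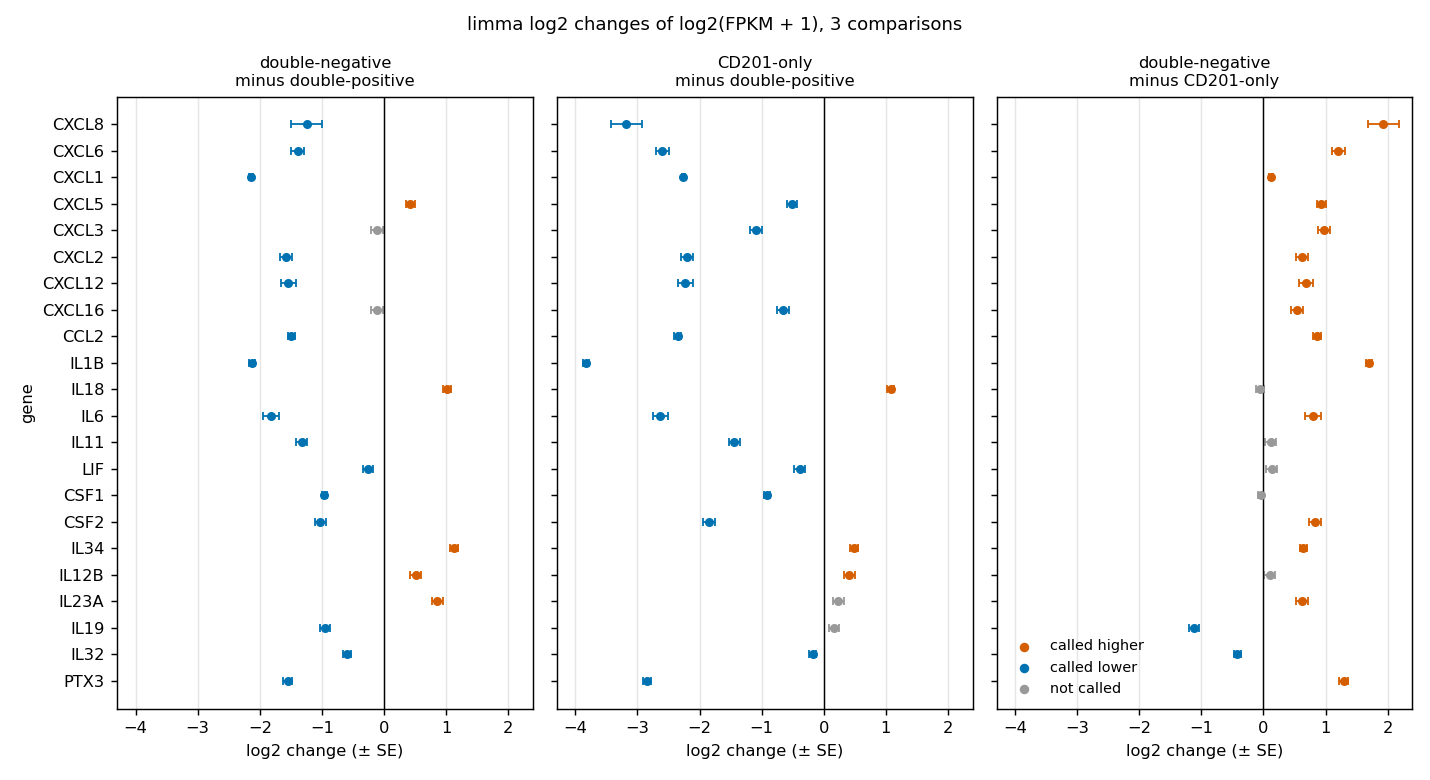
limma log2 changes of log2(FPKM + 1) with bars of 1 SE for the 22 tested genes in the 3 comparisons, coloured by call. Most points are left of 0 in the first 2 panels and right of 0 in the third, where IL19 at -1.12 and IL32 at -0.42 are the called exceptions.

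Among members under the mean limit, 5 reached 1 FPKM in some library: CSF3, above, TNF, CCL5, CCL26 and CXCL17. TNF, the other main inducer of NF-kB, was at 1.00 and 0.828 FPKM in CD201-only, 0.418 and 0.357 in double-negative, and 0.780 and 0.607 in double-positive libraries, so it was lowest in double-negative cells. In the fit without the filter TNF fell in double-negative against CD201-only (-0.46, adjusted p = 0.0163) and double-positive cells (-0.29, adjusted p = 0.0367). CCL5, a T cell attractant, was at 0 and 0.0375, 0.142 and 0.286, and 0.714 and 1.14 FPKM, with log2 changes of -0.91 (adjusted p = 0.00380) for CD201-only and -0.66 (adjusted p = 0.00951) for double-negative cells against double-positive cells. CCL26, an eosinophil attractant, was at 0.438 and 0.477, 0.306 and 0.261, and 0.663 and 1.17 FPKM, and CXCL17 at 1.55 and 0.692, 0.241 and 0.0685, and 0.429 and 0.228 FPKM. CXCL9, CXCL10 and CXCL11, the chemokines that interferon-gamma induces, were listed at 0 in every library, as were CCL20 and IL33, so their transcripts were not detectable at this depth.

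Few chemokine receptors were expressed. Of 23 chemokine receptor genes in the table, 3 passed the mean limit. The scavenger receptor ACKR3, which binds CXCL12, was at 13.3 FPKM in the double-negative, 19.1 in the CD201-only and 33.6 in the double-positive group, and had log2 changes of -1.28 and -0.78 against double-positive cells. CXCR1, which binds CXCL8 and CXCL6, was at 11.2, 9.54 and 5.79 FPKM and rose by 0.84 (adjusted p = 4.92e-05) and 0.64 in the same comparisons, while its relative CXCR2 had means of 0.0755, 0.103 and 0.0281 FPKM. CXCR4 had means of 0.257, 0.0188 and 0.0742 FPKM, and CCR2, the receptor of CCL2, was listed at 0 in every library.

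Of 46 genes for interleukin and related cytokine receptors, 19 were tested. In double-negative against double-positive cells 3 rose and 12 fell (median -0.43), in CD201-only cells 3 rose and 11 fell (median -0.21), and between double-negative and CD201-only cells 5 rose and 6 fell (median -0.09). Of all tested genes, 42.1% rose and 24.5% fell in the first of these comparisons. In the second 35.8% rose and 22.9% fell, and in the third 21.5% rose and 16.5% fell. The same shares stand beside the counts of the lists below. IL15RA was at 1.03, 0.787 and 5.77 FPKM in the double-negative, CD201-only and double-positive groups (-1.74 and -1.92 against double-positive cells). IL31RA rose by 1.52 (adjusted p = 2.95e-05) and the tumour necrosis factor receptor TNFRSF1B fell by 1.11 from CD201-only to double-negative cells.

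The NF-kB machinery moved in both directions, with list medians near 0. Of 24 tested subunits, kinases and adaptors, 4 rose and 6 fell in double-negative against double-positive cells (median 0.06), 4 rose and 9 fell in CD201-only cells (median -0.04), and 7 rose and 4 fell between double-negative and CD201-only cells. RELA, the p65 subunit, was at 18.2 FPKM in the double-negative, 18.4 in the CD201-only and 31.3 in the double-positive group (-0.75 and -0.74), and the receptor adaptor TRADD was at 10.9, 11.6 and 22.2 FPKM (-0.96 and -0.88). RELA differed by -0.013 between double-negative and CD201-only cells. MYD88, the adaptor of the interleukin-1 receptor, rose by 0.32 (adjusted p = 0.00385) and TRAF5 by 0.43 from CD201-only to double-negative cells.

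Of 23 tested NF-kB target and feedback genes outside the members, 6 rose and 14 fell in double-negative (median -0.32) and 5 rose and 11 fell in CD201-only (median -0.13) against double-positive cells. Between double-negative and CD201-only cells 9 rose and 8 fell (median 0.07). ICAM1, the adhesion molecule for leukocytes, was at 9.10, 7.001 and 30.4 FPKM in the double-negative, CD201-only and double-positive groups (-1.64 and -1.97 against double-positive). TNFAIP2 was at 8.53, 11.0 and 27.8 FPKM (-1.60 and -1.26). Among the genes that rose, CD83, the most abundant of the list, was at 215.1, 232.7 and 115.6 FPKM (0.89 and 1.00). The deubiquitinase CYLD, which restrains NF-kB, rose by 0.75 and PTGES, a prostaglandin E synthase, fell by 0.67 from CD201-only to double-negative cells.

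**Figure D5:**
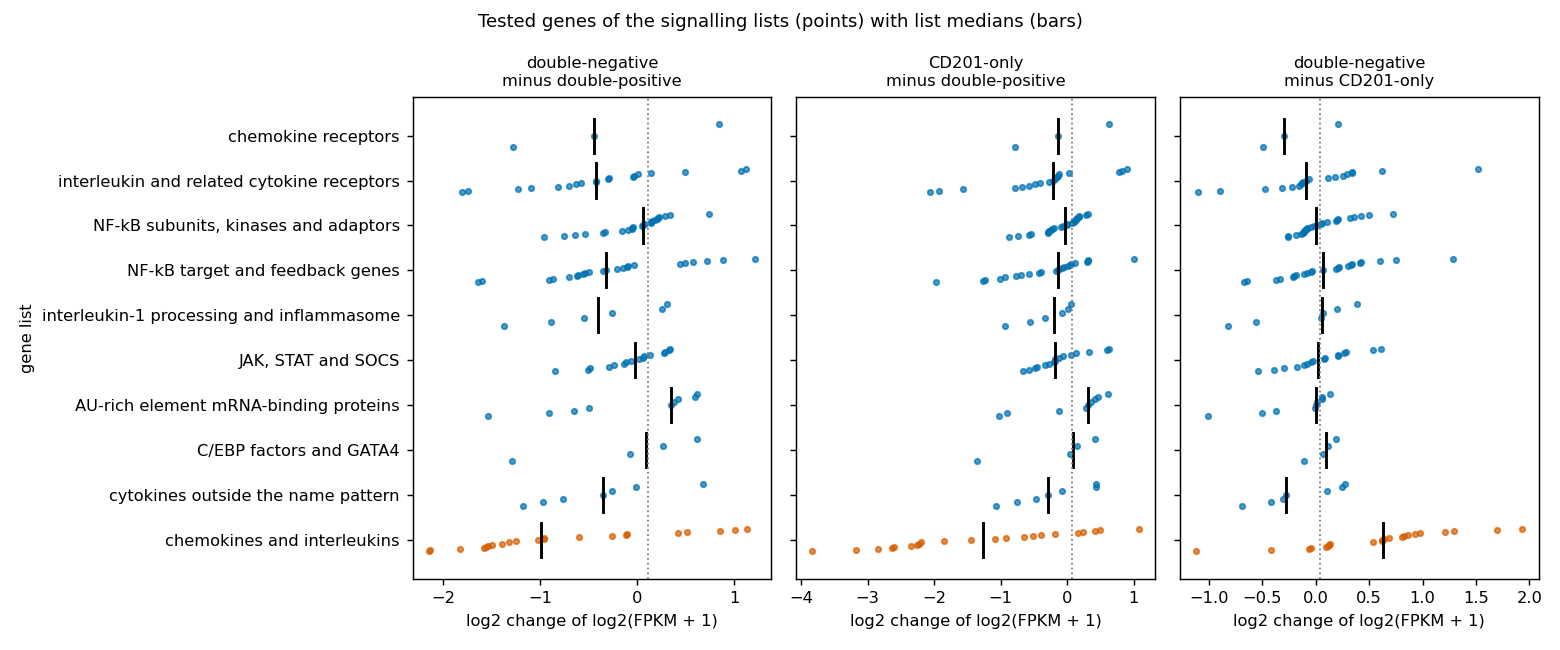
log2 changes of log2(FPKM + 1) for each tested gene of the signalling lists and of the 22 chemokine and interleukin genes (bottom row), with black bars at list medians and a dotted line at the median of all tested genes, on separate x axes. The members' medians are -0.99, -1.26 and 0.63. Lists of cell type markers are not drawn. Their medians in the 3 comparisons were -1.30, -1.40 and 0.19 for fibroblast and -1.33, -0.33 and -0.76 for endothelial markers. They were -1.10, -0.08 and -1.38 for keratinocyte and -0.13, 0.14 and -0.21 for leukocyte markers.

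The other lists moved both ways. Of 6 tested genes of interleukin-1 processing, 2 rose and 4 fell in double-negative and 0 rose and 3 fell in CD201-only against double-positive cells, with the inflammatory caspase CASP4 at -0.89 and -0.94. The inflammasome adaptor PYCARD fell by 0.55 in double-negative against double-positive and by 0.56 against CD201-only cells, and between these groups 1 gene of the list, SERPINB1, rose (0.38) and 2 fell. Of 16 JAK, STAT and SOCS genes, 5 rose and 7 fell, 3 rose and 10 fell, and 5 rose and 3 fell in the 3 comparisons. SOCS3, a feedback inhibitor of interleukin-6 signals, was highest in CD201-only cells at 45.8 FPKM against 31.2 in double-negative and 29.7 in double-positive cells.

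Of 9 proteins that bind AU-rich elements in cytokine transcripts, 5 rose and 4 fell in double-negative and 6 rose and 2 fell in CD201-only against double-positive cells, and 1 rose and 3 fell between these groups. The list holds both stabilising and destabilising proteins. ZFP36, or tristetraprolin, which speeds the decay of cytokine transcripts, was at 11.2 FPKM in the double-negative, 16.2 in the CD201-only and 34.3 in the double-positive group (-1.53 and -1.03). ZFP36L2 fell by 1.01 (adjusted p = 2.63e-06) from CD201-only to double-negative cells. Of the 4 tested genes of the list of C/EBP factors and GATA4, 2 rose and 1 fell in double-negative and 1 rose and 1 fell in CD201-only against double-positive cells. CEBPB, an activator of IL6 and CXCL8, was the one that fell, at 12.7, 12.03 and 32.3 FPKM (-1.29 and -1.35). Its change between double-negative and CD201-only cells was 0.07. CEBPZ rose in both comparisons with double-positive cells, at 9.89, 8.53 and 6.10 FPKM (0.62 and 0.42). Of 7 tested cytokines outside the name pattern, 1 rose and 5 fell, 2 rose and 3 fell, and 1 rose and 3 fell in the 3 comparisons. The gp130 cytokines CTF1 (-0.97 and -1.07) and CLCF1 (-0.77 and -0.46) were lower than in double-positive cells, and MIF was highest in double-negative cells at 2284 FPKM.

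Markers of white blood cells, which also make these cytokines, were mostly at or near 0. Of 18 markers 7 were at 0 in every library, among them CD3D, CD3E, MS4A1 and FCGR3A, and 4 were tested. Their summed level was 44.1 to 44.8 FPKM in double-negative, 40.8 in both CD201-only and 51.1 to 53.1 in double-positive libraries. Of the 4 tested markers 2 rose and 2 fell in double-negative, and 2 rose and 1 fell in CD201-only, against double-positive cells. Between double-negative and CD201-only cells 1 rose and 2 fell. Most of the summed level was CD14 and CORO1A, which ran in opposite orders. CD14, a receptor for bacterial lipopolysaccharide, took the order of CCL2 and IL1B. It was at 9.74 and 8.13 FPKM in CD201-only, 19.6 and 20.0 in double-negative, and 33.5 and 32.3 in double-positive libraries. CORO1A took the reverse order, at 27.0 and 28.3, 20.2 and 20.4, and 14.9 and 14.0 FPKM in the same groups. PTPRC, the pan-leukocyte marker CD45, was at 0.121 and 0.173, 0.788 and 0.886, and 0.305 and 0.308 FPKM, highest in double-negative cells. Their part in the cytokine levels was not tested.

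Fibroblast markers were present in every group and summed to 4247 to 4248 FPKM over 10 genes in double-negative, 3785 to 3804 in CD201-only and 8479 to 8582 in double-positive libraries. In double-negative against double-positive cells 9 of these 10 fell and 1 rose, in CD201-only cells all 10 fell, and between double-negative and CD201-only cells 7 rose and 2 fell. Their medians in these comparisons were -1.30, -1.40 and 0.19, beside -0.99, -1.26 and 0.63 for the chemokine and interleukin genes. The medians of the chemokine and interleukin genes depend on the pseudocount: at 0.1 they were -1.20, -1.80 and 0.98. Fibroblast medians were not calculated at that setting, so the sets are not ranked here. A link between them was not tested. Endothelial markers (9 genes, 5 tested) summed to 19.8 to 20.8, 34.5 to 36.5 and 35.46 to 38 FPKM. In the 3 comparisons 1 rose and 4 fell, 1 rose and 3 fell, and 1 rose and 4 fell (medians -1.33, -0.33 and -0.76). TEK, which carried most of the sum, had means of 13.7, 25.5 and 18.95 FPKM in the double-negative, CD201-only and double-positive groups, CLDN5 of 2.02, 4.10 and 6.62, and ROBO4 of 0.385, 1.09 and 5.39, while PECAM1 was at 0.0677 or less in every library.

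Keratinocyte markers (9 genes, 5 tested) summed to 43.4 to 44.2, 117.4 to 119.2 and 140.2 to 143.9 FPKM. Of these 0 rose and 3 fell, 2 rose and 2 fell, and 0 rose and 4 fell in the 3 comparisons (medians -1.10, -0.08 and -1.38). KRT6A had means of 11.5, 41.7 and 76.3 FPKM in the double-negative, CD201-only and double-positive groups, KRT14 of 1.82, 2.72 and 29.7, and SFN of 21.3, 57.2 and 22.4, while TP63 was at 0.0405 or less in every library. The endothelial and keratinocyte sums were lowest in double-negative cells. Their part in the cytokine levels was not tested.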

How the data were processed

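Poly-A RNA of 6 sorted libraries (2 per group) was sequenced from stranded libraries, per the labels' protocols. The deposited values are FPKM per gene, made by the authors with STAR and Cuffnorm on hg19, per the submitters' processing notes. For versions, annotation, scaling between libraries and use of strand in counting: not given in the sources used here. Groups came from the sample labels. The 12210 of 27788 genes whose 6-library mean reached 1 FPKM were tested on log2(FPKM + 1), which understates changes of low genes, with limma 3.58.1 in R 4.3.3: moderated by an expression trend, 1 fit over all 6 libraries (3 residual degrees of freedom), Benjamini-Hochberg adjustment over all tested genes, threshold 0.05. The fit was tested on simulated data. No count test was possible, since FPKM are not counts.

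Every tested member is named with each library's value, untested ones where a library reached 1 FPKM, and, after their values were seen, a few others. From each pathway list and comparison, up to 2 called genes with the largest change were eligible (groups not overlapping, higher mean at least 5 FPKM). Receptors of named members, and CD83, were added after their values were seen. The members and lists were chosen with earlier results of these data known. Alternatives changed the pseudocount, filter, scaling, trend, libraries fitted and replicate block. Tables and promoters were read with Python 3.11.15, pandas 2.3.3 and numpy 2.4.6, and figures drawn with matplotlib 3.10.9.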

Additional observations from a re-analysis of the deposited data

How the results depend on the processing

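Of the 1026 repeats of single-gene results under the alternatives, 1003 kept direction and side of the threshold, 16 lost a call, 6 gained one and 1 changed direction: IL18 in double-negative against CD201-only cells without CD201-only replicate 1 (0.019, adjusted p = 0.849), where leaving out libraries gave -0.14 to 0.019, none called. The lost and gained calls are those of CXCL1, LIF, IL32, IL19 and IL23A given with these genes. A filter at a mean of 5 FPKM tested 12 members and left 3 higher (47.2% of all genes) and 9 lower (26.1%) in double-negative and 9 lower (23.9%) in CD201-only against double-positive cells, 8 higher (23.2%) in double-negative against CD201-only cells, and 6 in the order from CD201-only to double-positive. Without the filter 48 members were tested, with 25 lower in double-negative than double-positive cells (18% of all genes) and 4 lower in double-negative than CD201-only cells (9.62%, a share near that of the members). Leaving out each library in turn gave 1559 to 2787 genes of the whole table called higher and 1302 to 2085 called lower in double-negative against CD201-only cells (2620 and 2012 with all libraries). The lowest counts were without double-negative replicate 1 and the next lowest, 1617 higher, without replicate 2, where a group is 1 library assumed to vary like the others. A pseudocount of 0.1 moved called values by over 1.5 times: CSF2 to -3.17, CXCL16 to -1.26 and IL6 to -4.11 in CD201-only against double-positive cells, and CSF2 to 1.76, CXCL16 to 1.07, IL6 to 1.74, CXCL12 to 1.10 and CXCL2 to 1.14 in double-negative against CD201-only cells.

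Whether libraries with the same replicate number share an infection or sort is not stated. The correlations of the deviations of replicate 1 from the group means were 0.08, -0.07 and 0.12, which cannot settle that. A replicate block in the fit gave 8110, 7189 and 4590 called genes in the 3 comparisons (8130, 7165 and 4632 without), and no member's call changed. Among the tested members, depth limits CD201-only values of IL6, CSF2 and CXCL2, which rest on about 10 fragments or fewer per library. Members under the mean limit rest on few fragments too. CCL5 had about 0 and 0.65 in CD201-only and 2.45 and 4.93 in double-negative libraries, and CCL26 8.7 or fewer in every library. CSF3 had about 2.06 and 1.88 in CD201-only and 6.46 and 5.61 in double-negative libraries, and TNF 9.14 and 7.8 in double-negative libraries.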
